A study of Mus musculus with 24 samples.

Results

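The 10 genes followed, *Bcl2*, *Bcl2l1*, *Mcl1*, *Bcl2a1b*, *Bcl2a1d*, *Bax*, *Bak1*, *Bid*, *Bcl2l11* and *Pmaip1*, belong to the Bcl-2 family of survival and death regulators. They were found by gene symbol among the 56691 genes of each deposited table, and all 10 were present in both tables and above 0 FPKM in every library. Proteins of this family meet at the outer membrane of the mitochondrion and decide whether it stays sealed in a stressed cell. Survival proteins hold back the effectors BAX and BAK, whose pores would release cytochrome c and start the caspases, and small BH3-only proteins free or activate the effectors. In macrophages the survival protein A1 is known as an early target of NF-kappaB after engagement of Toll-like receptors.

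RNA was sequenced in 24 libraries, 3 in each of 8 groups. RAW264.7 is a mouse macrophage-like leukemia line, and its *Olfml3* knockout was made with CRISPR/Cas9 and isolated as single-cell clones. Bone marrow-derived macrophages (BMDMs) came from 8-week-old male C57BL/6 mice, wild type (*Olfml3*+/+) or global knockout (*Olfml3*-/-), and were grown for 6 days in IMDM with 20% L929 cell supernatant and 10% serum. Wild-type and knockout cells of both kinds received PBS or 100 ng/mL of lipopolysaccharide (LPS), a component of the Gram-negative outer membrane, for 4 h. The comparisons ask how loss of *Olfml3* bears on the RNA of macrophages at rest and after LPS, and how LPS alone bears on it. Counts per library summed to between 11638273 and 16478616 in RAW264.7 and between 17121240 and 22873094 in BMDMs. Levels are given in FPKM, which corrects for gene length and sequencing depth so that different genes can be set side by side, as mean ± SD over 3 libraries (n = 3) unless single libraries are listed in replicate order.

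A pair of checks bear on how the RAW264.7 groups can be read. *Olfml3* itself went against the label in that line, at 0.65, 1.01 and 1.19 FPKM in the libraries labelled knockout with PBS and 18.9, 18.8 and 18.3 with LPS, where no wild-type library exceeded 0.29. In BMDMs it followed the label, with at most 0.03 FPKM in any knockout library and at least 0.24 in any wild-type library. The authors describe the clones as knocked out at both alleles, with mutations read by sequencing of their DNA, which RNA level does not test. RAW264.7 directions are therefore given for libraries labelled knockout. One of the PBS libraries labelled knockout, replicate 1, also stood apart. Across genes its correlation was 0.964 to the rest of its group and 0.973 to wild type given PBS, and its FPKM summed to 356156 against 296109 and 295256 in replicates 2 and 3. Where a test printed below rests on it, the value without it is given beside it.

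Macrophage markers were present in both cell types. Of 8 such markers, 8 were above 0 in every BMDM group, *Lyz2* (lysozyme) being the most abundant at 9959 to 14940.5 FPKM. In RAW264.7, 7 of 8 were above 0 and *Mertk* was at 0 in all 4 groups. The 8 markers summed to between 3343.5 and 4013 FPKM in single wild-type RAW264.7 libraries, and to between 1145 and 1420.1 in those labelled knockout. With PBS *Lyz2*, *Cd14*, *Itgam* and *Adgre1* were called lower there, *Lyz2* being at 408, 259 and 284.5 FPKM against at least 2038.5 in wild type. *Csf1r* (263 in wild type and 339.6 in those labelled knockout) and *Fcgr1* (18.3 and 22.1) had higher means with PBS and were not called. Whether these marker differences play a part in the differences of the Bcl-2 family genes in that line was not tested. T and NK cell markers summed to at most 0.25 FPKM in any library, and *Cd3e* was at 0 in all 24. In such bulk samples, fewer cells of a kind and less RNA per cell cannot be told apart.

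The test was limma on log2(FPKM + 0.1), one fit for each cell type, with p-values adjusted by Benjamini-Hochberg over all genes tested. A gene counts as called where its adjusted p was under 0.05 and its fold change at least 1.5. The labels do not say whether replicates are separate cultures or animals, so the p-values measure the spread between these libraries alone.

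The levels of the 10 genes spanned more than 2 orders of magnitude within each cell type. In resting wild-type RAW264.7 cells the order from high to low was *Bax*, *Mcl1*, *Bak1*, *Bid*, *Bcl2a1d*, *Bcl2a1b*, *Pmaip1*, *Bcl2l1*, *Bcl2l11* and *Bcl2*, and no pair of neighbours overlapped in its 3 libraries. At its top stood *Bax* with 166 ± 5.51 FPKM and at its foot *Bcl2* with 1.96 ± 0.0900. Resting wild-type BMDMs had *Mcl1* first (217 ± 2.99 FPKM), then *Bcl2a1b*, *Bak1*, *Bax*, *Bcl2l1*, *Bcl2l11*, *Bid*, *Pmaip1*, *Bcl2a1d* and *Bcl2* (2.25 ± 0.145), with *Bak1* overlapping *Bax* and *Pmaip1* overlapping *Bcl2a1d*. After LPS an A1 gene led in every group, though in wild-type RAW264.7 *Mcl1* stood above *Bcl2a1b*. *Bcl2a1d* was the highest of the 10 in RAW264.7 of either label and *Bcl2a1b* the highest in BMDMs of either genotype, and *Bcl2* was the lowest of the 10 in all 8 groups. The levels of both tables are set side by side and were not tested against each other.

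**Figure D1:**
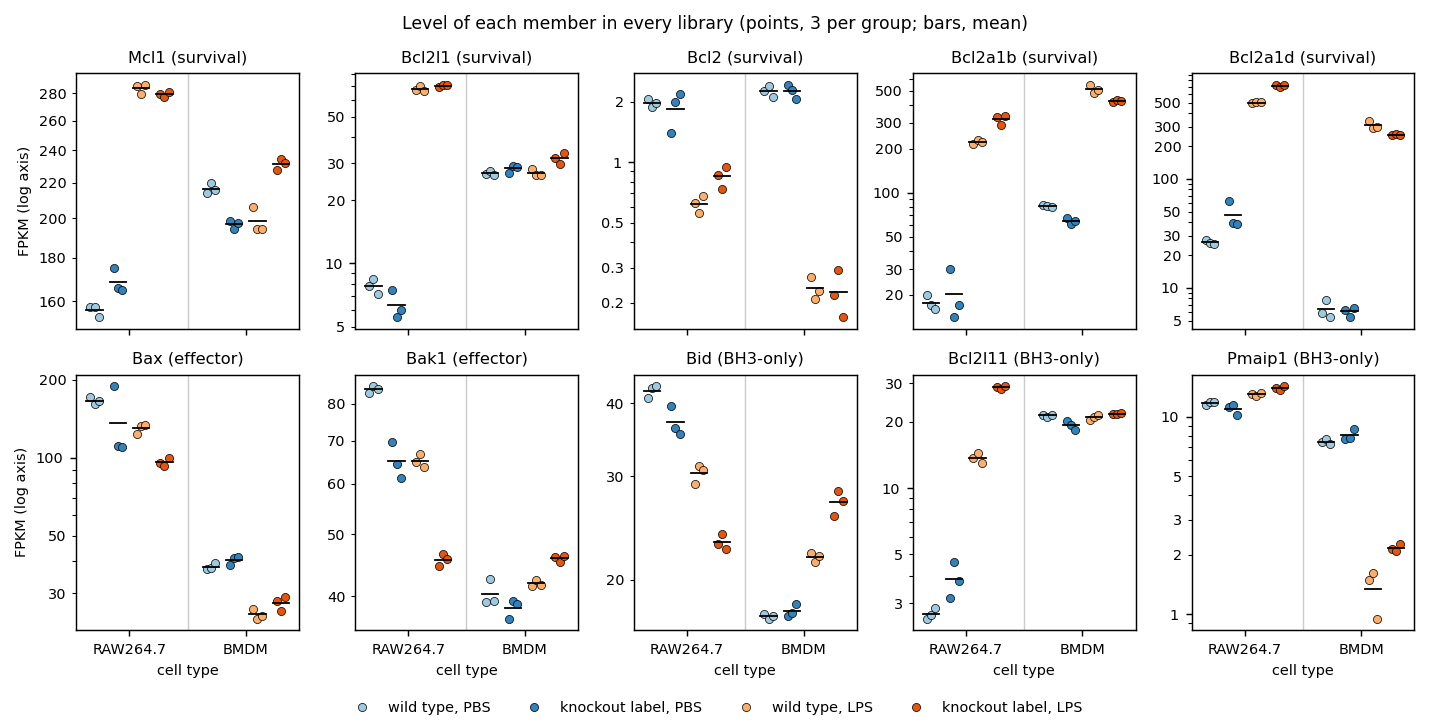
FPKM of each of the 10 genes (vertical axis, log scale, its range set for each panel) in the 4 RAW264.7 and 4 BMDM groups (horizontal axis). Points are single libraries, 3 per group, and bars mark their mean. The A1 genes *Bcl2a1b* and *Bcl2a1d* stand far higher in the LPS groups of both cell types, and *Bcl2* stands lower.

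Regulatory sequence was looked up for the genes in the RefSeq promoter table on GRCm38.p6, where an entry holds 250 bases before and 50 after a transcript start. Of the 10 genes, 9 matched, all but *Pmaip1*, with 12 entries. The motifs searched on both strands were AP-1 (TGANTCA), CRE (TGACGTCA), FOXO (GTAAACA), PU.1 (GAGGAA), the TATA box (TATAAA) and the kappaB consensus, which occur in 7.81%, 1.79%, 3.65%, 28.3%, 13.6% and 8.46% of all 32851 promoters. No pair of matches described here shared bases. AP-1 letters were found in both A1 entries and in that of the further copy *Bcl2a1a*, at 164 bases before the start in *Bcl2a1b*, 114 in *Bcl2a1d* and 120 in *Bcl2a1a*, and those of *Bcl2a1c* lacked them. The kappaB consensus was found in 1 entry, the second of *Bcl2l1*, at 242 bases before its start. FOXO letters lay 227 bases before the first start of *Bcl2l11*. PU.1 letters occurred 4 times in *Bcl2a1b*, 2 times in *Bcl2a1d*, 3 times in *Bcl2a1a*, 4 times in *Bcl2a1c* and once each in *Bcl2*, *Bid* and *Bak1*, and none of the motifs occurred in the entries of *Mcl1* and *Bax*. A match describes the letters and is not a site of binding, and no match says only that these letters are absent from this window. The 250 bases before the start are printed for the 3 A1 copies, called higher with LPS in both cell types, and for the *Bcl2l1* start with the kappaB match, called higher with LPS in RAW264.7. Capitals mark the AP-1 letters in the A1 copies and the kappaB match in *Bcl2l1*. The windows are chr9:89199023-89199272 on the plus strand for *Bcl2a1b*, chr9:88731851-88732100 on the minus strand for *Bcl2a1d*, chr9:88956670-88956919 on the plus strand for *Bcl2a1a* and chr2:152830718-152830967 on the minus strand for *Bcl2l1*.
Bcl2a1b: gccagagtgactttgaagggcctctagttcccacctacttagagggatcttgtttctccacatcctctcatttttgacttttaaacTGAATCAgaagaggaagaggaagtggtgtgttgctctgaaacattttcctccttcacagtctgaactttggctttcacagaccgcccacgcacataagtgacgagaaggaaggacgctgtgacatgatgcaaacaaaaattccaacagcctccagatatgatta
Bcl2a1d: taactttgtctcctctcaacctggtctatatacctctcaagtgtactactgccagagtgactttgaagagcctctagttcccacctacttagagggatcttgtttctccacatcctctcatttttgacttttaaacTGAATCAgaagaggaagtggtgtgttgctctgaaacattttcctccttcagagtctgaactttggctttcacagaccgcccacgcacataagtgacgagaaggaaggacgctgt
Bcl2a1a: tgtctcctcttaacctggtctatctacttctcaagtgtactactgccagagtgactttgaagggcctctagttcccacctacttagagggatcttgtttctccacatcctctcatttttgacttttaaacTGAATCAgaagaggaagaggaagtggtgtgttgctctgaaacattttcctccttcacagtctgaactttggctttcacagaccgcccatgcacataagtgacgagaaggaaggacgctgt
Bcl2l1: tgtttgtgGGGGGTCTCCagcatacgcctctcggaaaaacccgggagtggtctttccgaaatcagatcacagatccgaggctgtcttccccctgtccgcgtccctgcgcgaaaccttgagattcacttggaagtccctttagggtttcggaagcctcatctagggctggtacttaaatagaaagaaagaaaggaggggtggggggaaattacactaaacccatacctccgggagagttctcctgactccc

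The 7 letters of the motif were the same in the 3 copies, and *Bcl2a1d* lacked 6 bases that follow it in the other copies. Aligned over whole entries, *Bcl2a1a* and *Bcl2a1d* were identical at 94.12% of columns, *Bcl2a1a* and *Bcl2a1b* at 73.84% and *Bcl2a1b* and *Bcl2a1d* at 70.57%, the *Bcl2a1b* entry being placed further downstream.

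Mouse A1 is a small gene cluster rather than a single gene, which limits how far its copies can be told apart. *Bcl2a1b* (ENSMUSG00000089929) and *Bcl2a1d* (ENSMUSG00000099974) lie on chromosome 9, at 89081262 to 89089880 on the plus strand and at 88605338 to 88613967 on the minus strand by the coordinates of the tables. The labels name mm10, but these positions differ from those of GENCODE M21 on GRCm38 (89199209 to 89207827 and 88723285 to 88731914), so the build of the tables is uncertain and its coordinates were used for no sequence. The longest GENCODE M21 transcripts of *Bcl2a1a* and *Bcl2a1b* were identical at 97.92% of aligned columns, and those of *Bcl2a1b* and *Bcl2a1d* at 93.86%. Of all stretches of 150 bases, the read length, 14.2% in *Bcl2a1b*, 30.3% in *Bcl2a1d* and 28.2% in *Bcl2a1a* recurred exactly in another copy, and 0 of 295 in *Bcl2a1c* did. How reads that match several copies were assigned is not given in the labels. Results for the copies are therefore given singly and with the FPKM of all 4 added.

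With LPS in wild-type RAW264.7 cells, 4 of the 5 survival genes rose and *Bcl2* fell. *Bcl2l1* encodes BCL-XL, and its level was 7.79, 8.39 and 7.15 FPKM with PBS and 66.9, 70.3 and 66.4 with LPS. Every LPS library lay far above every PBS library, with a log2 fold change of 3.11 (SE 0.11, adjusted p = 4.37e-08). *Bcl2a1d* stood at 27.3, 25.8 and 25.4 FPKM with PBS and at 496, 502 and 504 with LPS, a log2 fold change of 4.25 (SE 0.16, adjusted p = 6.66e-08). *Bcl2a1b* had 17.7 ± 2.09 and 222 ± 6.84 FPKM and a log2 fold change of 3.65 (SE 0.23, adjusted p = 2.13e-06). For *Mcl1*, the short-lived guardian whose loss kills many blood cells, 156 ± 2.41 became 284 ± 3.73 FPKM, a log2 fold change of 0.86 (SE 0.06, adjusted p = 4.95e-06). *Bcl2*, the founding member, moved the other way, from 1.96 ± 0.0900 to 0.623 ± 0.0603 FPKM (log2 fold change -1.51, SE 0.16, adjusted p = 5.69e-05, lower in 3 of 3 libraries).

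Among the death genes of these wild-type cells, *Bcl2l11*, which encodes the BH3-only protein BIM, was called. Its level was 2.55, 2.64 and 2.85 FPKM with PBS and 13.8, 14.4 and 13.1 with LPS, so that the groups lay well apart (log2 fold change 2.32, SE 0.12, adjusted p = 5.14e-07). The effectors *Bax* and *Bak1* were not called (log2 fold changes -0.35 and -0.37), nor were *Bid*, the link from death receptors to mitochondria (-0.47), and *Pmaip1*, which encodes NOXA, the partner of MCL-1 (0.14). In all, 5 of 10 were called higher, where 5.80% of 26740 genes tested were, and 1 of 10 lower, where 12.5% were. The median log2 fold change was 0.50 for the 10 genes and -0.05 for all genes tested. Over the 11336 genes at 1 FPKM or more it was -0.21 with the deposited FPKM and 0.03 with median-ratio scaling, and the calls of the 10 genes were the same under both.

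RAW264.7 cells labelled knockout gave 5 of 10 genes higher with LPS (7.45% of all genes) and 2 of 10 lower (14.6%). Without replicate 1 of their PBS libraries the counts were again 5 and 2, against 6.80% and 15.0% of all genes. *Bcl2l1* reached 70.3 ± 0.807 FPKM (log2 fold change 3.46 with replicate 1 and 3.59 without), *Bcl2a1d* 713 ± 21.6 (3.96 and 4.19), *Bcl2a1b* 330, 290.3 and 336 in single libraries (4.03 and 4.35), *Mcl1* 279 ± 2.17 (0.73 and 0.75) and *Bcl2l11* 28.8 ± 0.412 (2.89 and 2.76). *Bcl2* fell by 1.02 on the log2 scale (1.20 without replicate 1, where the log2 fold change was -1.20). *Bid* went from 37.1 ± 2.14 to 23.2 ± 0.694 FPKM, a log2 fold change of -0.68 with replicate 1 and -0.63 without, but it was not called with median-ratio scaling (-0.41), edgeR (-0.46) or DESeq2 (-0.41). *Bax* had a log2 fold change of -0.46, which was not called, and was called at -0.60 without replicate 3 of the PBS libraries and stood at -0.20 without replicate 1. *Pmaip1*, at 0.35, was called with median-ratio scaling and DESeq2 (0.61 each) and stood at 0.37 without replicate 1.

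In BMDMs the A1 genes were called higher with LPS, and *Bcl2* and *Pmaip1* lower, in both genotypes. *Bcl2a1d* was at 5.88, 7.78 and 5.39 FPKM in wild type with PBS and at 336, 296 and 301 with LPS. This is the widest gap of any of the 10 genes in either wild type, with a log2 fold change of 5.61 (SE 0.13, adjusted p = 2.94e-10). *Bcl2a1b* went from 81.3 ± 1.24 to 510.0 ± 33.7 FPKM (log2 fold change 2.65, SE 0.06, adjusted p = 2.18e-10). *Bcl2* had 2.25, 2.39 and 2.10 FPKM with PBS and 0.27, 0.21 and 0.23 with LPS, with no overlap and a log2 fold change of -2.80 (SE 0.13, adjusted p = 3.17e-08). *Pmaip1* was lower with LPS as well, at 7.43, 7.68 and 7.25 FPKM against 1.48, 1.61 and 0.95. All 3 LPS libraries lay below all PBS libraries, with a log2 fold change of -2.42 (SE 0.15, adjusted p = 3.38e-07), or -1.75 with edgeR. In knockout BMDMs the same contrast gave 5.36 for *Bcl2a1d*, 2.73 for *Bcl2a1b*, -2.86 for *Bcl2* and -1.85 for *Pmaip1*, each apart in all 3 libraries.

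**Figure D2:**
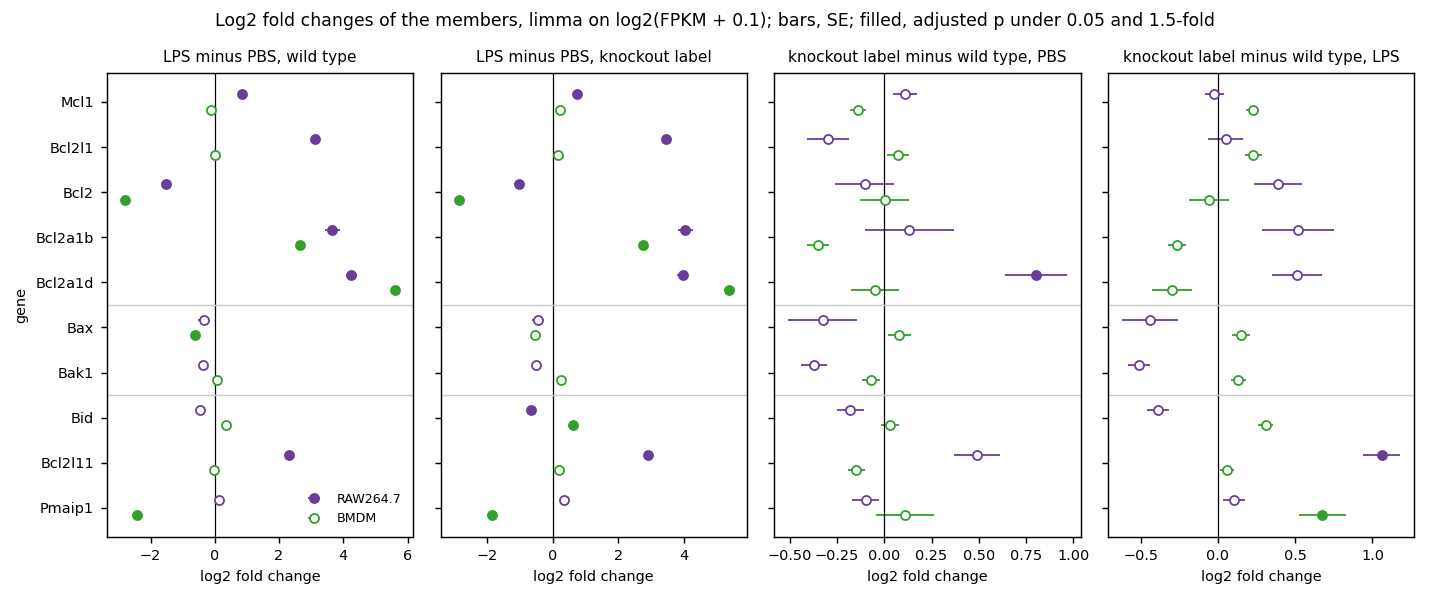
Log2 fold change (horizontal axis) of each of the 10 genes (vertical axis) with LPS against PBS and between genotypes as labelled, in RAW264.7 (purple) and BMDMs (green), from 3 libraries per group. Points are limma estimates, bars their SE, and filled points were called. The largest change is 5.61, for *Bcl2a1d* with LPS in wild-type BMDMs; the BMDM values of *Mcl1*, *Bax*, *Bcl2l11* and *Bcl2l1* with LPS in wild type, and of *Bax* in knockout, change sign with library scaling.

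In BMDMs the sizes of the changes with LPS depended on how libraries were scaled. For the remaining genes the call did as well, except for *Bax* in knockout, which was not called under any setting that kept the 1.5-fold threshold. For *Mcl1*, *Bax*, *Bcl2l11* and *Bcl2l1* in wild type and *Bax* in knockout the direction depended on scaling. With the deposited FPKM, the median log2 fold change with LPS was -0.30 in wild type and -0.28 in knockout over all genes, and -0.73 and -0.62 over the 10555 genes at 1 FPKM or more, a shift that median-ratio scaling set to 0 over all genes. *Mcl1* had 214, 219.8 and 216 FPKM in wild type with PBS and 206, 195 and 194 with LPS, a log2 fold change of -0.13 as deposited, 0.68 with median-ratio scaling, 0.59 with edgeR and 0.68 with DESeq2. *Bax* was called lower as deposited, from 38.1 ± 0.989 to 24.9 ± 1.03 FPKM (log2 fold change -0.61, SE 0.06, adjusted p = 9.85e-06), and stood at 0.19, 0.10 and 0.19 under these same alternatives, where it was not called. *Bcl2l11*, at -0.03 as deposited, stood at 0.77, 0.69 and 0.78. *Bcl2l1*, *Bak1* and *Bid* in wild type, at 0.01, 0.05 and 0.33 as deposited, were called higher under all 3, with 0.72, 0.77 and 1.05 by edgeR, while *Bcl2l1* stood at -0.04 with TPM scaling. The A1 genes, *Bcl2* and *Pmaip1* kept direction and call under every scaling run, while their sizes moved. With median-ratio scaling, edgeR and DESeq2 in wild type *Bcl2a1b* stood at 3.45, 3.36 and 3.45, *Bcl2a1d* at 6.40, 6.32 and 6.42, *Bcl2* at -2.13, -2.52 and -2.43, and *Pmaip1* at -1.64, -1.75 and -1.66. In knockout edgeR gave 3.35, 5.99, -2.66 and -1.29 for *Bcl2a1b*, *Bcl2a1d*, *Bcl2* and *Pmaip1*. Thus limma on deposited FPKM called 2 of 10 genes higher (7.94% of 26973 genes) and 3 of 10 lower (32.5%) in wild type, whereas edgeR on counts called 7 higher (14.6%) and 2 lower (18.3%).

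In knockout BMDMs 3 of 10 genes were called higher with LPS (8.02%) and 2 of 10 lower (30.9%) from deposited FPKM, and 7 higher (13.5%) and 2 lower (17.7%) by edgeR. The third gene called higher from FPKM was *Bid*, at 17.4, 17.6 and 18.2 FPKM with PBS and 25.7, 28.3 and 27.3 with LPS. Its groups lay apart (log2 fold change 0.61, SE 0.05, adjusted p = 1.76e-06), but the value fell under 1.5-fold with TPM scaling (0.58) and without replicate 2 of the LPS libraries (0.58). *Bax* there, at -0.54, was not called and stood at 0.15 with median-ratio scaling.

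**Figure D3:**
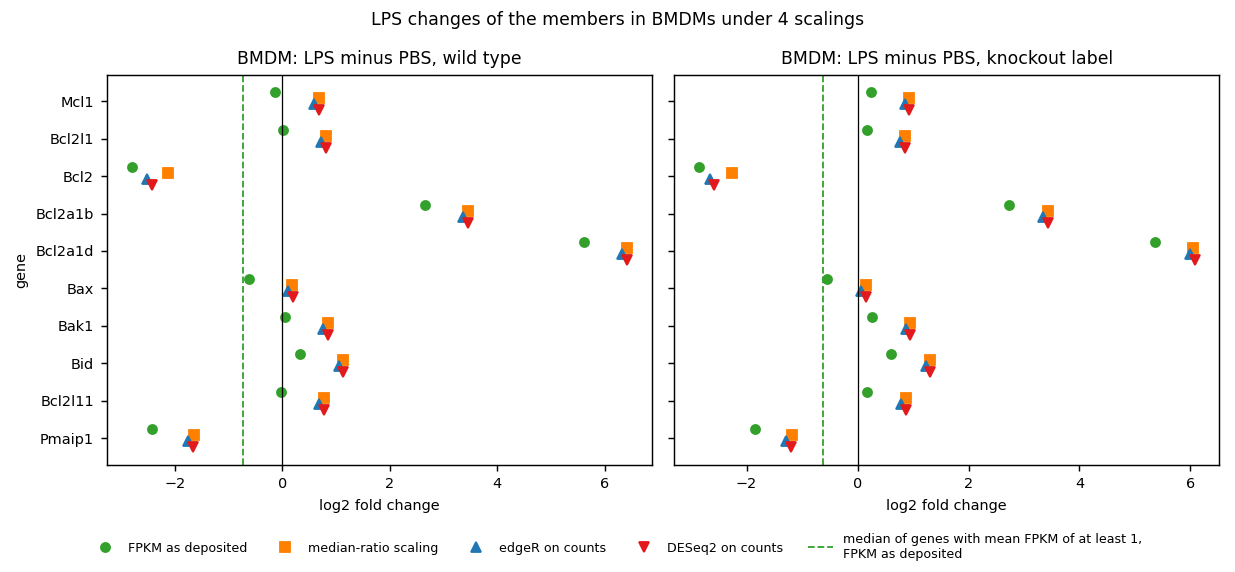
Log2 fold change with LPS against PBS in BMDMs (horizontal axis) of each of the 10 genes (vertical axis), in wild type and knockout with 3 libraries per group. Points are estimates from deposited FPKM, median-ratio scaled FPKM, edgeR and DESeq2, and the dashed line is the median of genes at 1 FPKM or more as deposited. *Bcl2a1b*, *Bcl2a1d*, *Bcl2* and *Pmaip1* keep their side of 0 in all 4, whereas *Mcl1*, *Bax* and *Bcl2l11* cross it in wild type, and *Bax* in knockout.

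Genotype was compared first at rest. In RAW264.7 with PBS 1 of 10 genes was called higher in the libraries labelled knockout, where 4.79% of all genes were, and 0 of 10 lower, where 3.77% were. *Bcl2a1d* was that gene, at 27.3, 25.8 and 25.4 FPKM in wild type and 62.9, 39.1 and 38.7 in those labelled knockout. The groups did not overlap, and replicate 1 was the high value (log2 fold change 0.80, SE 0.16, adjusted p = 0.0139). The call was lost without that replicate, where the log2 fold change was 0.57, without wild-type replicate 3 (0.78), with the PBS libraries fitted alone (0.80) and with the 4 A1 copies added (0.57). Without replicate 1, *Bcl2l11* was called instead, at a log2 fold change of 0.62 against 0.49 with it, from 2.55, 2.64 and 2.85 FPKM in wild type and 3.17, 4.59 and 3.78 in those labelled knockout. In that fit without replicate 1, 12.7% of all genes were called higher and 8.11% lower. *Bcl2l11* was also called with TPM scaling of all libraries (0.68), which moved the median of all genes from 0.02 to 0.12 here. *Bak1*, at 84.2 ± 1.06 and 65.1 ± 4.19 FPKM, had an adjusted p of 0.00944 with a log2 fold change of -0.37, below 1.5-fold, and was lower in 3 of 3 libraries, with -0.42 without replicate 1.

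*Bax* shows how much replicate 1 weighed in that group. Its level was 189, 112 and 109.9 FPKM in the libraries labelled knockout with PBS, against 172, 161 and 165 in wild type. Replicate 1 lay above every wild-type library and replicates 2 and 3 below them, so the groups overlapped (log2 fold change -0.33 with it and -0.58 without, not called either way). *Bcl2a1b* likewise stood at 30.0, 14.1 and 17.1 FPKM against 20.1, 16.9 and 16.1, with a log2 fold change of 0.13 that became -0.18 without replicate 1.

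In BMDMs at rest limma called 0 of 10 genes, where 0.901% of all genes were higher and 0.916% lower in knockout. At an unadjusted p under 0.05 there were 3, *Mcl1*, *Bcl2a1b* and *Bcl2l11*, and edgeR and DESeq2 also called 0. *Bcl2a1b* had the largest difference of the 3, at 81.3 ± 1.24 FPKM in wild type and 63.7 ± 2.92 in knockout (log2 fold change -0.35, adjusted p = 0.00779, lower in 3 of 3 libraries), short of 1.5-fold.

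Genotype was compared next after LPS. In RAW264.7 1 of 10 genes was called higher in the libraries labelled knockout (9.73% of all genes) and 0 of 10 lower (7.60%). This was *Bcl2l11* (ENSMUSG00000027381, chromosome 2, 127967958 to 128004467 on the plus strand by the tables), at 13.8, 14.4 and 13.1 FPKM in wild type and 28.9, 28.3 and 29.1 in those labelled knockout. Every library labelled knockout held more than any wild-type library, 2.09-fold on average on the log scale (log2 fold change 1.06, SE 0.12, adjusted p = 0.000345), and the call held under each alternative run. Values short of the fold threshold were -0.51 for *Bak1* (65.0 ± 1.53 and 45.6 ± 0.926 FPKM, adjusted p = 0.00104), -0.39 for *Bid* (adjusted p = 0.00504) and 0.51 for *Bcl2a1d* (adjusted p = 0.0467), each apart in 3 of 3 libraries. *Bcl2a1b*, at 215, 229 and 223 FPKM in wild type and 330, 290.3 and 336 in those labelled knockout, had 0.52 (adjusted p = 0.145). With the 4 A1 copies added, the log2 fold change was 0.60 (adjusted p = 0.0398), which passed the call, and under TPM scaling *Bcl2a1b* (0.75) and *Bcl2a1d* (0.74) passed it singly.

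BMDMs with LPS had 1 of 10 genes called higher in knockout (3.23%) and 0 of 10 lower (1.53%). *Pmaip1* (ENSMUSG00000024521, chromosome 18) was at 1.48, 1.61 and 0.95 FPKM in wild type and 2.13, 2.09 and 2.27 in knockout. The groups lay apart, and wild-type replicate 3 was the lowest of the 6 (log2 fold change 0.68, SE 0.15, adjusted p = 0.0135). This call was lost with a pseudocount of 1 (0.44), median-ratio scaling (0.54), edgeR (0.54) and DESeq2 (0.52), with the LPS libraries fitted alone (0.68) and without wild-type replicate 3 (0.46). Further genes had an adjusted p under 0.05 short of 1.5-fold. They were *Bid* (21.8 ± 0.400 and 27.1 ± 1.31 FPKM, log2 fold change 0.31, adjusted p = 0.00172), *Mcl1* (198 ± 6.73 and 232 ± 3.47, 0.22, adjusted p = 0.00492), *Bcl2l1* (0.23, adjusted p = 0.0221) and *Bcl2a1b* (-0.26, adjusted p = 0.0106), each apart in 3 of 3 libraries. These sizes depended on scaling, median-ratio scaling giving 0.15 for *Bid*, 0.07 for *Mcl1*, 0.07 for *Bcl2l1* and -0.42 for *Bcl2a1b*, and the first 3 of these did not keep an adjusted p under 0.05 there. *Bid* kept it with edgeR (0.18) and DESeq2 (0.16) and *Mcl1* with DESeq2 (0.07), while *Bcl2l1* kept it with neither. Genes at 1 FPKM or more had a median of 0.14 in this comparison, and *Bak1*, at 0.13 as deposited, stood at -0.03 with median-ratio scaling.

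Whether the genotypes answered LPS differently was tested by the interaction. In RAW264.7 limma called 0 of 10 genes, against 0.905% of all genes higher and 1.04% lower, 1 gene had an unadjusted p under 0.05, and edgeR and DESeq2 called 0. That gene was *Bcl2l11*, whose response to LPS was larger by 0.57 in the libraries labelled knockout (SE 0.17, adjusted p = 0.19). With edgeR (0.54) and DESeq2 (0.57) its adjusted p was under 0.05 and its size short of 1.5-fold. It passed the call with a pseudocount of 1 (0.63) and without replicate 2 of the PBS libraries labelled knockout (0.70). Without replicate 1 of that group *Bcl2l11* stood at 0.44 and *Bcl2a1b* passed, at 0.70 against 0.38 with it, where 1.28% of all genes were higher and 2.12% lower. In BMDMs limma called 0 of 10, against 1.91% and 1.02% of all genes, 5 had an unadjusted p under 0.05, and edgeR and DESeq2 called 0. *Mcl1* (0.36, adjusted p = 0.00697) and *Bid* (0.28, adjusted p = 0.0401) were the ones with an adjusted p under 0.05, both short of 1.5-fold. With edgeR they were 0.26 and 0.18, and *Bid* did not keep an adjusted p under 0.05 with edgeR, DESeq2 or median-ratio scaling. *Mcl1* was lower with LPS in wild type, at 206, 195 and 194 FPKM after 214, 219.8 and 216, and higher in knockout, at 228, 235 and 232 after 199, 195 and 197, as deposited. With edgeR it was higher in both, by 0.59 and 0.85.

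The share of survival genes in the RNA of the 10 genes was larger with LPS in both wild types. Survival genes held 40.6 ± 0.591% of the summed FPKM of the 10 genes in resting wild-type RAW264.7 cells and 81.0 ± 0.297% after LPS. For wild-type BMDMs the shares were 72.8 ± 0.192% and 90.4 ± 0.458%. The effectors held 48.5% and then 14.7% in RAW264.7 and 17.1% and then 5.78% in BMDMs, and the BH3-only genes 10.9% and then 4.30%, and 10.1% and then 3.82%. A share rises when one gene rises, and these shares follow the A1 genes. *Mcl1* alone gave 74.5% of survival FPKM in resting wild-type RAW264.7 and 65.0% in BMDMs, and 26.4% and 19.0% after LPS. By then *Bcl2a1d* gave 46.5% in RAW264.7 and *Bcl2a1b* 48.7% in BMDMs. These are shares of RNA within a library, which library scaling does not touch, and they carry no test.

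**Figure D4:**
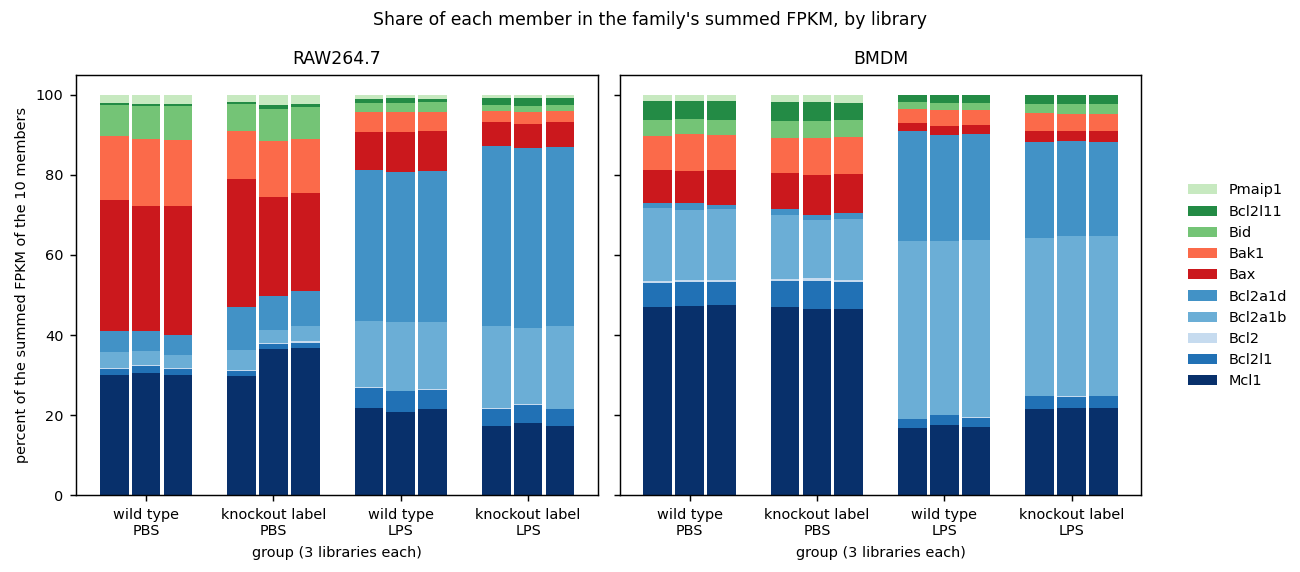
Share of each of the 10 genes in their summed FPKM (vertical axis, percent), stacked for each of the 24 libraries (horizontal axis, by group). Blue shades are survival genes, red shades effectors and green shades BH3-only genes. The blue part widens with LPS, from a mean of 40.6% to 81.0% in wild-type RAW264.7 and from 72.8% to 90.4% in wild-type BMDMs.

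Ratios between partners, taken within each library, tell the same data by opposing roles. Survival over effector FPKM was 0.838 ± 0.0185 in resting wild-type RAW264.7 and 5.50 ± 0.119 after LPS. In RAW264.7 libraries labelled knockout it was 1.07, 1.29 and 1.34 with PBS and 9.75 ± 0.263 with LPS. In BMDMs it was 4.25 ± 0.0701 at rest and 15.7 ± 0.792 after LPS in wild type, and 3.78 ± 0.183 and 12.8 ± 0.494 in knockout. *Mcl1* over *Bcl2l11*, a guardian over a protein it binds, was lower with LPS in RAW264.7. It was 58.4 ± 4.13 in wild type with PBS and 20.7 ± 1.28 with LPS. In those labelled knockout it was 55.2, 36.2 and 43.6 with PBS and 9.70 ± 0.0723 with LPS. It lay between 9.46 and 10.6 in all 4 BMDM groups. *Bcl2l1* over *Bcl2l11*, another such pair, was higher with LPS in wild-type RAW264.7, at 2.91 ± 0.356 and 4.94 ± 0.126, and stood at 2.36, 1.21 and 1.58 with PBS and 2.44 ± 0.0531 with LPS in those labelled knockout. *Mcl1* over *Pmaip1* in BMDMs was 29.1 ± 0.619 at rest and 155 ± 43.9 after LPS in wild type, and 24.5 ± 1.53 and 107 ± 4.99 in knockout. *Bax* over *Bak1* was 1.97, 2.00 and 2.11 by group in RAW264.7 wild type with PBS, wild type with LPS and those labelled knockout with LPS, and 2.71, 1.73 and 1.79 in the single libraries labelled knockout with PBS, the first being the replicate that stood apart. It went from 0.945 ± 0.0559 to 0.595 ± 0.0307 with LPS in wild-type BMDMs.

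The leading A1 copy was *Bcl2a1d* in RAW264.7 and *Bcl2a1b* in BMDMs, which was not tested between them. In RAW264.7 *Bcl2a1d* gave 59.7 ± 1.83% of the FPKM of the 4 copies in wild type with PBS and 66.6 ± 0.513% with LPS. In BMDMs *Bcl2a1b* gave 92.5 ± 1.29% with PBS and 58.5 ± 0.203% with LPS, while *Bcl2a1d* went from 7.21% to 35.7%. *Bcl2a1a* was near 0 at rest, at 0.0267 ± 0.0462 FPKM in wild-type RAW264.7 and 0.277 ± 0.00577 in BMDMs, and reached 28.5 ± 0.315 and 49.6 ± 3.34 with LPS. In RAW264.7 labelled knockout with LPS it reached 103 ± 5.94 FPKM, 9.09% of the 4 copies against 3.80% in wild type (log2 fold change 1.85, adjusted p = 0.0016). *Bcl2a1c* held at most 0.0874% of the 4 copies by group mean. All 4 copies together had 43.9 ± 3.11 and 752 ± 10.9 FPKM in wild-type RAW264.7 and 87.9 ± 2.04 and 871 ± 58.4 in wild-type BMDMs, log2 fold changes of 4.10 and 3.31 with LPS.

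**Figure D5:**
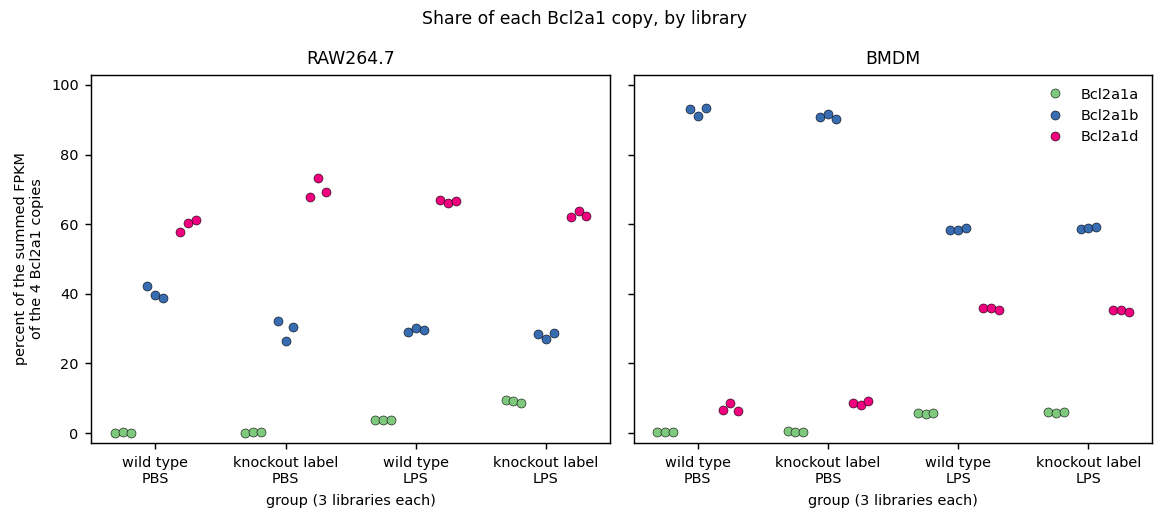
Share of *Bcl2a1a*, *Bcl2a1b* and *Bcl2a1d* in the summed FPKM of the 4 A1 copies (vertical axis, percent) in the 8 groups (horizontal axis). Points are single libraries, 3 per group. *Bcl2a1d* leads in RAW264.7 and *Bcl2a1b* in BMDMs, where the mean share of *Bcl2a1d* goes from 7.21% to 35.7% with LPS in wild type.

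Genes of related pathways were read from fixed lists, beside 5.80% of all genes called higher and 12.5% lower with LPS in wild-type RAW264.7. Of the inhibitors of apoptosis, which block caspases or support NF-kappaB signalling, 2 of 5 were called higher and 1 of 5 lower (median 0.53), among them *Birc3* (2.34), *Birc5* (-0.94), the mitotic member, and *Xiap* (0.86). Of the death receptor pathway, 3 of 9 were higher and 2 of 9 lower (median 0.43), with *Fas*, the receptor, at 6.63, *Cflar*, the inhibitor of caspase-8, at 2.31 and *Fadd*, its adaptor, at -1.21. Of the genes that act after the membrane opens, *Casp9*, the initiator caspase of the apoptosome (-1.50), and *Endog*, a mitochondrial nuclease (-1.43), were called lower. Other BH3-only genes were lower in 4 of 7 (median -0.71), with *Bmf* at -2.25, *Bnip3* at -0.97 and *Bnip3l* at -0.74. By contrast edgeR called 2 of 7 lower and 1 of 7 higher, where it called 2343 and 2173 of all 26740 genes. Of the transcription factors known to act on the family, *Nfkb1* (2.88), *Rel* (2.14) and *Foxo3* (-1.03) were called. The median of all genes was -0.05.

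In wild-type BMDMs with LPS, 7.94% of all genes were called higher and 32.5% lower, with a median of -0.30. *Birc3* (2.40) and *Birc2* (1.44) were higher and *Birc5* lower (-2.26), *Fas* (3.83), *Cflar* (3.64) and *Traf2* (1.73) were higher, and *Rel* (2.46) and *Nfkb1* (2.14) were higher with *Foxo3*, an activator of *Bcl2l11* in other cells, at -4.50. Of the inhibitors of apoptosis 2 of 5 were called higher and 2 lower, and of the death receptor pathway 5 of 9 and 2. Transcription factors were called higher in 3 of 7 and lower in 3, and apoptosome, caspase and mitochondrial genes in 3 of 9 and 5. *Endog* (-2.39) and *Casp9* (-2.03) were lower. *Bmf* went from 4.11 ± 0.275 to 0.0267 ± 0.0153 FPKM (-5.06), beside *Bnip3l* (-1.16) and *Bad* (-1.06), of which edgeR called *Bmf* alone. The MCL1 turnover genes, ubiquitin ligases and a deubiquitinase of MCL-1, were called lower in 3 of 4 by limma (32.5% of all genes) and in 0 of 4 by edgeR (18.3%). *Bcl2l10* was not tested in BMDMs, having no FPKM above 0.

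The same lists were read for genotype in RAW264.7. In the libraries labelled knockout, inhibitors of apoptosis were called higher in 3 of 5 with PBS, *Birc3* (1.29), *Birc2* (1.00) and *Xiap* (0.83), where 4.79% of all genes were, with a median of 1.00 against 0.02 over all genes. With edgeR 4 of 5 were called higher, where 2048 of all 26740 genes were. Without replicate 1, limma called 4 of 5, *Birc6* (1.96), *Birc3* (1.36), *Xiap* (1.16) and *Birc2* (1.10), where 12.7% of all genes were. In the other lists, that fit called 2 of 4 MCL1 turnover genes and 3 of 7 transcription factors higher (0 and 1 with replicate 1). It called 2 of 3 outer membrane channels and 2 of 7 other BH3-only genes lower (0 and 1 with it), where 8.11% of all genes were. Of the 9 apoptosome, caspase and mitochondrial genes it called 1 higher and 2 lower (0 and 1 with replicate 1). Replicate 1 lay near wild type in *Xiap*, at 9.19 FPKM against 18.7 and 18.1 in replicates 2 and 3, and in *Birc6*, at 4.88 against 19.1 and 19.3. With LPS, where 9.73% of all genes were higher and 7.60% lower, 3 of 5 inhibitors were higher, *Birc2* (1.80), *Birc6* (1.76) and *Birc3* (1.22). Of these 5, edgeR called 3 higher and 1 lower, where it called 2514 and 2329 of all 26740 genes. Of the other BH3-only genes 0 of 7 were higher and 4 of 7 lower with LPS (median -0.79), the largest with a level of 1 FPKM or more being *Bad* (-1.06), *Bnip3l* (-0.82) and *Bnip3* (-0.79). *Endog* (-0.85) and *Casp6* (-0.82) were lower as well. *Huwe1* (1.76) and *Usp9x* (1.34), a ligase and a deubiquitinase of MCL-1, were higher, and so was *Rel* (1.47). In the interaction *Birc2* (0.80), *Casp8* (-0.72) and *Tnfrsf1a* (-0.64), the TNF receptor, were called by limma and by edgeR. Without replicate 1 they stood at 0.70, -0.67 and -0.57, *Tnfrsf1a* was not called, and *Xiap* was called at -0.71.

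Between BMDM genotypes, 0.901% of all genes were called higher and 0.916% lower with PBS, and 3.23% and 1.53% with LPS. With PBS *Birc5* was higher in knockout (0.80) and *Ddit3*, the stress factor CHOP, lower (-0.63). With LPS *Birc5* (1.08), *Foxo3* (0.96) and *Bnip3* (0.79) were higher, and *Apaf1*, the scaffold of the apoptosome, was lower, at 26.8 ± 1.38 FPKM in wild type and 13.4 ± 0.397 in knockout (-0.99), with *Ripk1* at -0.61. *Apaf1* (-0.94), *Foxo3* (0.87), *Bbc3*, which encodes PUMA (-0.77), and *Bnip3* (0.74) were called in the interaction by limma and by edgeR.

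Some genes followed members closely over the 24 libraries, each table centred on its own mean, among 10452 genes compared. For *Bcl2a1b* these were *Stx6* (Pearson r = 0.990), *Ifih1*, an RNA sensor (0.989), and *Ifnb1*, interferon beta (0.989), each also above 0.98 in either cell type alone. *Ifih1* went from 0.677 ± 0.0551 to 51.9 ± 1.10 FPKM in wild-type RAW264.7 and from 8.87 ± 0.555 to 203 ± 2.77 in wild-type BMDMs. For *Bcl2l11* they were *Kdm6b*, a histone demethylase (0.988), *Esf1* (0.986) and *Jade2* (0.983), a likeness carried by RAW264.7, where r was 0.993, 0.995 and 0.996, against 0.289, 0.272 and 0.164 in BMDMs. *Kdm6b* stood at 13.3 ± 0.182 FPKM in wild type with LPS and 28.7 ± 0.492 in those labelled knockout, close to the values of *Bcl2l11*. For *Pmaip1* they were *Prmt5* (0.987), *Gnl3* (0.985) and *Frrs1* (0.984), with 0.992, 0.992 and 0.989 in BMDMs and 0.676, 0.649 and 0.836 in RAW264.7. Libraries of one group share treatment and genotype, so these coefficients describe likeness and carry no test.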

How the data were processed

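The counts and FPKM used are those the authors deposited, 1 table for RAW264.7 and 1 for BMDMs, each with 24 value columns over 12 libraries. How the authors counted reads, including reads matching several genes, is not given in the labels. FPKM were made by the authors from counts and gene length, and recomputing them gave values within 1% for 99.88% (RAW264.7) and 99.51% (BMDM) of values over 50 counts. Sample titles set the groups, since the genotype tags of 12 samples differ from their titles. Tests were two-sided limma 3.58.1 contrasts in R 4.3.3 on log2(FPKM + 0.1), over genes above 0 in any library (26740 and 26973), with Benjamini-Hochberg adjustment. edgeR 4.0.16 and DESeq2 1.42.0 on counts were run beside it. The 10 genes and the gene lists were chosen with earlier results of these data known. Besides the 10, *Olfml3* and cell-type markers, genes are named from fixed pathway lists (up to 3 called per list and comparison by largest fold change, at 1 FPKM or more in either group) or as the 3 most similar to *Bcl2a1b*, *Bcl2l11* and *Pmaip1*. Promoters are RefSeq on GRCm38.p6 and transcripts GENCODE M21.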

Additional observations from a re-analysis of the deposited data

Results flagged for a closer look

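Several log2 fold changes had opposite signs in RAW264.7 and BMDMs. The difference between the cell types was not tested.

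For knockout (as labelled) against wild type with PBS, RAW264.7 and BMDM values were 0.11 and -0.138 for *Mcl1*, 0.491 and -0.147 for *Bcl2l11*, and -0.099 and 0.111 for *Pmaip1*, the first *Pmaip1* value changing sign with scaling (to 0.09 with TPM). With LPS they were 0.517 and -0.265 for *Bcl2a1b*, 0.511 and -0.299 for *Bcl2a1d*, -0.511 and 0.13 for *Bak1*, the last changing sign with scaling (to -0.03), and -0.39 and 0.31 for *Bid*. Without replicate 1 of the PBS libraries labelled knockout, the RAW264.7 values with PBS were 0.083 for *Mcl1*, 0.619 for *Bcl2l11* and -0.119 for *Pmaip1*.

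For LPS against PBS in wild type they were 0.861 and -0.127 for *Mcl1*, the second changing sign with scaling (to 0.68), -0.466 and 0.332 for *Bid*, and 0.143 and -2.42 for *Pmaip1*. In knockout (as labelled) they were -0.51 and 0.257 for *Bak1*, -0.675 and 0.61 for *Bid*, and 0.346 and -1.85 for *Pmaip1*. Without replicate 1 of the PBS libraries labelled knockout, these RAW264.7 values were -0.46 for *Bak1*, -0.629 for *Bid* and 0.366 for *Pmaip1*.

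The genotype by LPS interaction in BMDMs was tested, at 0.362 for *Mcl1* and 0.278 for *Bid*, with adjusted p = 0.00697 and 0.0401, both short of 1.5-fold. With edgeR the values were 0.26 and 0.18, and *Bid* did not keep an adjusted p under 0.05 with edgeR, DESeq2 or median-ratio scaling.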

How the results depend on the processing

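The number of the 10 genes called was recounted under each alternative, and the cause of any difference was not tested.

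In RAW264.7, knockout as labelled against wild type with PBS gave 1, against 2 with TPM scaling, 0 with the 2 groups alone, 3 by adjusted p alone and 0 to 1 with each library left out. With LPS it gave 1, against 3 with TPM scaling and 4 by adjusted p alone. LPS against PBS gave 6 in wild type, against 8 by adjusted p alone, and 7 in those labelled knockout, against 6 with edgeR, 9 by adjusted p alone and 7 to 8 with each library left out. The interaction gave 0, against 1 with a pseudocount of 1 and 0 to 1 with each library left out.

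In BMDMs, knockout against wild type with PBS gave 0, against 1 by adjusted p alone. With LPS it gave 1, against 0 with a pseudocount of 1, 0 with median-ratio scaling, 0 with edgeR, 0 with DESeq2, 0 with the 2 groups alone, 5 by adjusted p alone and 0 to 1 with each library left out. LPS against PBS in wild type gave 5, against 9 with median-ratio scaling, 9 with edgeR, 9 with DESeq2 and 7 by adjusted p alone. In knockout it gave 5, against 9, 9 and 9 under the same alternatives, 4 with TPM scaling, 10 by adjusted p alone and 4 to 5 with each library left out. The interaction gave 0, against 2 by adjusted p alone.

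Signs reversed in BMDM LPS against PBS in wild type, listed for median-ratio scaling, edgeR and DESeq2. *Mcl1* went from -0.13 to 0.68, 0.59 and 0.68, *Bax* from -0.61 to 0.19, 0.10 and 0.19, and *Bcl2l11* from -0.03 to 0.77, 0.69 and 0.78.

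With replicate number as a block, 0 of 100 results of the 10 genes changed call. Libraries with the same number correlated at a mean of 0.0146 (RAW264.7) and 0.0186 (BMDM) after removing group means. Those with different numbers correlated at -0.00712 and -0.00931. Removing the mean of each group ties the values for different numbers to those for the same number. The comparison therefore cannot decide whether the numbers pair the libraries.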

Other observations

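Markers of other cell types were low beside those of macrophages. Neutrophil markers summed to between 5.33 and 8.61 FPKM in BMDM libraries, *S100a8* being the most abundant, with *Ly6g* and *Retnlg* at 0. *Cd79b*, a B cell marker, was at 1.23 FPKM in wild type and 1.37 in knockout BMDMs with PBS. Erythroid markers were at 0 in all BMDM libraries.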
